A study of Rattus norvegicus with 16 samples.

Results

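Rat pancreatic islets that carried a PPARγ adenovirus were compared with islets that carried a null adenovirus, both without added ligand. The comparison used 7 of the 16 deposited array columns: 3 null virus arrays (replicates 1, 3 and 4) and 4 PPARγ virus arrays (replicates 1 to 4), taken by their labels. Per the labels, both groups were exposed to 50 viral particles per cell over 32 h and then kept for 16 h in vehicle, 0.004% DMSO. The same pair of viruses was also studied with 200 nM of the compound GW347845, a PPARγ agonist, in place of vehicle, and those 7 arrays served here for side-by-side values. They also counted in the filter and in the estimate of the spread. Standard errors and p-values of the vehicle comparison thus rest on a spread shared over 14 arrays. The fit treats these arrays as independent. Same-numbered vehicle and compound arrays of 1 virus nevertheless deviated together (r from 0.45 to 0.70), which these p-values do not take into account. Null virus replicate 2 in vehicle was left out because its column was identical, in all 15923 probe sets, to the column labelled null virus replicate 2 with compound. Both groups were infected, and no uninfected islets were among the samples. The labels give neither strain, age nor sex of the rats, nor the promoter and species of the viral PPARγ, and whether the replicates came from separate islet preparations is not stated. The p-values below therefore measure only the spread between these arrays, which may be technical.

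PPARγ is a nuclear receptor that binds DNA together with a retinoid X receptor and raises transcription of lipid-handling genes when a fatty acid or drug ligand is bound. It is best known as the regulator of fat cell formation, where its targets cover fatty acid binding, lipid droplet coating and triglyceride synthesis. Islets consist mostly of insulin-producing beta cells, with glucagon, somatostatin and pancreatic polypeptide cells beside them.

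The deposited values are array intensities scaled by the authors to a common trimmed mean. Of the 15923 probe sets, 10078 were tested, those that exceeded an intensity of 39.3, the table's 40th percentile, on 4 or more of 14 arrays. Changes are differences of log2(intensity + 4.6), PPARγ virus minus null virus, with standard errors (SE) from limma, and a probe set is called when its p-value, adjusted over all 10078 by the Benjamini-Hochberg method, is below 0.05. Values per array are given in the order of replicates 1, 3 and 4 for null virus and 1 to 4 for PPARγ virus. Array medians lay between 56.4 and 67.5, and 11 measures of array quality or summed cell type markers overlapped between the groups. An exact permutation test of 3 against 4 arrays cannot give a p below 0.0571, so none of them could pass. The 3 prime to 5 prime control ratios were high in all 7 arrays, at 8.36 to 12.6 for Gapdh and 7.58 to 13.4 for beta-actin. Null virus compound replicate 3, which enters the shared spread, had a Gapdh ratio of 18.9. Overlap between the groups says nothing about RNA quality itself. The islet label was borne out by the hormone genes: Ins1 intensity was 5331.9 to 7093.1 in null virus and 5067.1 to 6038.7 in PPARγ virus arrays. Of the marker genes on the array, 14 of 25 for leukocytes, 21 of 24 for endothelium and stroma and 1 of 5 for fat cells passed the filter; Ptprc, Pecam1, Plin1 and Lep were among those that did not.

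With PPARγ virus alone, 4 probe sets were called higher (0.0397% of those tested) and 0 lower (0%). The 4 were Pparg itself, Plek, Gpd1 and Sgk2. At an unadjusted p below 0.05 there were 446 probe sets (4.43%), 232 higher and 214 lower. Signs were split evenly over the whole array, 5045 positive and 5033 negative, with a median change of 0.00. At the median probe set the 95% interval reached 0.37 to either side of the estimate, with the spread shared over the 14 arrays of the fit. Only 33 probe sets differed by more than 1 on the log2 scale, 21 upward and 12 downward.

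The targeted gene was read first. Pparg intensity was 32.3, 27.7 and 39.1 in null virus and 6199.1, 4939.2, 5948.3 and 5283.5 in PPARγ virus arrays. Every PPARγ virus array thus lay far above every null virus array, and the virus labels of all 7 held. The change was 7.22 ± 0.18 (SE; adjusted p = 3.35e-12), or 149-fold on the offset scale. All 3 null virus values were at or under the filter limit of 39.3, and the files carry no detection calls, so the endogenous level is not resolved; viral and endogenous transcripts cannot be told apart by this probe set. The change was similar in the compound arrays, at 7.14 ± 0.18, so Pparg does not check the vehicle label.

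No other receptor or coregulator was called. Of 18 genes listed, 9 were tested, Pparg was the 1 called, and the median change over the 9 was 0.14; it was 0.00 when members under the filter were counted as well, and -0.01 without null virus replicate 4. Ppard, the ubiquitous relative of PPARγ, was at 0.00 ± 0.14. Ncor1, a corepressor of unliganded nuclear receptors, was at 0.14 ± 0.12, and Ep300, a histone acetyltransferase coactivator, at 0.36 ± 0.23. Dimmer tested probe sets were at 0.48 ± 0.31 for Ncor1 and, with the opposite sign, at -0.13 ± 0.28 for Ep300. The intensities of Rxra and Ppara were below the filter in both groups, at 7.4 to 14.4 and 3.0 to 6.3.

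**Figure D1:**
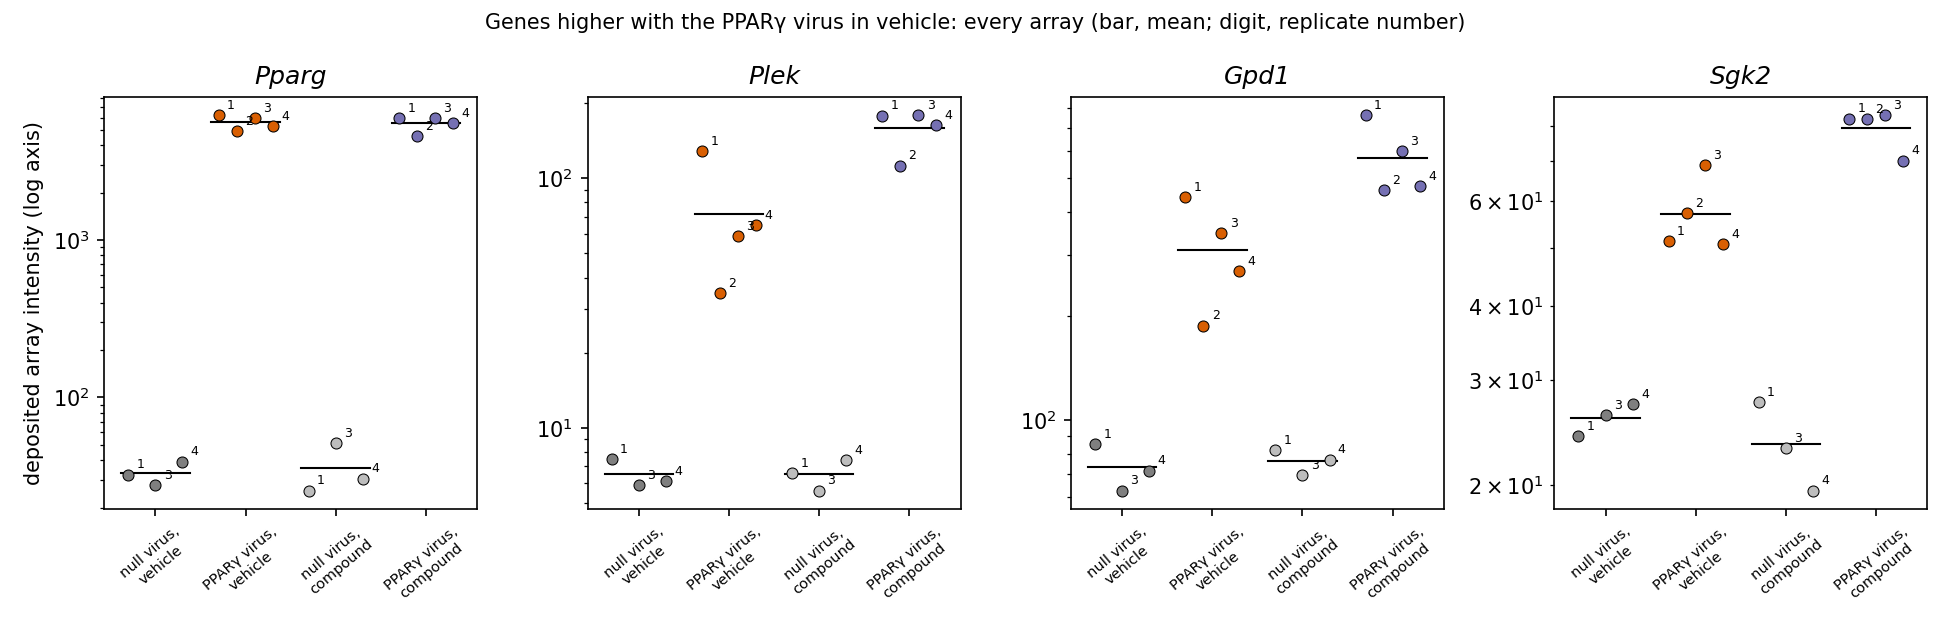
Deposited array intensity (log axis) of the 4 genes called higher, 1 panel per gene, in null and PPARγ virus arrays with vehicle and with compound; each point is an array, the digit its replicate number and the bar the group mean. In vehicle the groups do not overlap for any of the 4 genes, and Plek ranges from 34.7 to 128.8 among the PPARγ virus arrays.

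Plek encodes pleckstrin, a protein kinase C substrate known from platelets and leukocytes. Its intensity was 7.5, 5.9 and 6.1 in null virus and 128.8, 34.7, 58.8 and 65.0 in PPARγ virus arrays, a change of 2.65 ± 0.31 (SE; adjusted p = 0.00237). The groups did not overlap, and replicate 1 was the highest and replicate 2 the lowest of the PPARγ virus arrays. Since all null virus values lay under the filter limit, Plek entered the test through the PPARγ virus arrays. It was the 1 of 14 tested leukocyte-list genes whose groups did not overlap (2.45% over all probe sets, upward). Over all 25 such genes on the array, Plek included, intensities summed to 1432 to 2024 in null virus arrays. In PPARγ virus arrays they summed to 1422 to 2292. Ptprc stayed between 15.7 and 27.7 in all 7 vehicle arrays. The 1 platelet marker tested, Pf4, was at -0.43 ± 0.34.

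Gpd1 encodes the cytosolic glycerol-3-phosphate dehydrogenase that makes the glycerol backbone of triglycerides. It read 85.4, 62.7 and 71.6 in null virus and 440.7, 187.9, 347.0 and 270.5 in PPARγ virus arrays. No array of one group reached the other, and the change was 1.97 ± 0.24 (SE; adjusted p = 0.00268). A second Gpd1 probe set was near the bottom of the scale in all 7 arrays (1.2 to 2.5) and was not tested.

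Sgk2, a kinase of the serum- and glucocorticoid-regulated family, gave the smallest called change. Its intensity was 24.2, 26.2 and 27.4 in null virus and 51.4, 57.3, 68.8 and 50.7 in PPARγ virus arrays, 1.01 ± 0.16 (SE; adjusted p = 0.0342). The groups did not overlap, but all 3 null virus values lay under the filter limit, so Sgk2 too entered the test through the PPARγ virus arrays. Without the filter its adjusted p was 0.0657, and with a random block of virus and replicate number 0.0840. Leaving out any single vehicle array (adjusted p 0.0607 to 0.210), or PPARγ virus compound replicate 1, 3 or 4 (0.0569 to 0.0806), also ended the call. With only the 7 vehicle arrays in the fit, so that the spread was not shared with the compound arrays, Pparg was the 1 probe set called, and the adjusted p was 0.115 for Plek, 0.0721 for Gpd1 and 0.385 for Sgk2.

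Next in rank were genes that did not pass. They are given as values, chosen by smallest p among single-gene probe sets whose groups did not overlap; over all probe sets, also those annotated to several genes or none, there were 247 in the upward direction (2.45%) and 219 in the downward direction (2.17%). Dgat2, the enzyme of the last step of triglyceride synthesis, read 96.9, 106.5 and 96.9 in null virus and 188.0, 202.3, 163.0 and 249.6 in PPARγ virus arrays. Its difference was 0.96 ± 0.16 (adjusted p = 0.0731); it passed with the random block of virus and replicate number (0.96 ± 0.15, adjusted p = 0.0354), without PPARγ virus vehicle replicate 3 and without PPARγ virus compound replicate 2 or 3. Litaf, an endosomal membrane protein named for its induction by lipopolysaccharide, read 910.8 to 1033.0 against 1389.0 to 1732.8, a difference of 0.66 ± 0.12 (adjusted p = 0.103), and passed without null virus compound replicate 3. Plin2, the lipid droplet coat protein, was measured by 2 probe sets with differences of 0.93 ± 0.18 (adjusted p = 0.114) and 0.93 ± 0.23 (0.323). The first passed without PPARγ virus vehicle replicate 3, whose Plin2 values were the lowest of the 4 on both probe sets, or without PPARγ virus compound replicate 2.

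Fga and Cp, which encode plasma proteins, also ranked here. Fga, the fibrinogen alpha chain, read 29.3, 25.1 and 22.7 against 107.8, 53.1, 55.7 and 67.9, a difference of 1.27 ± 0.25 (adjusted p = 0.135), and its second probe set was at 1.94 ± 0.71. All null virus values of the first Fga probe set, with vehicle and with compound, lay under the filter limit of 39.3. That probe set thus entered the test through the PPARγ virus arrays. The Cp probe sets (ceruloplasmin, a copper-carrying oxidase) were at 0.80 ± 0.18, 0.73 ± 0.17 and 0.39 ± 0.20, and only the first 2 kept the groups apart. The remaining genes of this rank were Hmox2, the constitutive heme oxygenase (0.65 ± 0.13), Nelfb, a subunit of the negative elongation factor (0.50 ± 0.10), Supt20h, a subunit of a histone acetylation complex (0.67 ± 0.14), Edf1, a transcriptional coactivator (0.40 ± 0.09), and Fbxl19, an F-box protein (0.63 ± 0.15). Their adjusted p-values ran from 0.135 to 0.299. The null virus values of Fbxl19 in vehicle, 34.7 to 38.9, all lay under the filter limit, so Fbxl19 too needed the PPARγ virus arrays to be tested.

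In the downward direction the 12 genes next in rank had adjusted p-values from 0.0731 to 0.275. Stard3nl, a cholesterol-binding protein of late endosomes, read 654.0, 628.9 and 535.2 in null virus and 334.0, 391.5, 386.7 and 394.2 in PPARγ virus arrays (-0.68 ± 0.12, adjusted p = 0.0731); it passed without PPARγ virus compound replicate 2. Calml4, a calmodulin-like protein, was at -0.74 ± 0.15 (adjusted p = 0.170) and passed without PPARγ virus vehicle replicate 3, which at 170.3 was closest to the null virus arrays. Abca2, a lysosomal lipid transporter, had the largest of these differences, from 75.4, 42.1 and 65.8 to 15.0, 6.8, 22.1 and 10.8 (-1.88 ± 0.43, adjusted p = 0.227). All PPARγ virus values of Abca2, with vehicle and with compound, lay under the filter limit of 39.3. Abca2 thus entered the test only through null virus arrays, which favours a difference in this direction. The clock repressor Cry2 was at -0.93 ± 0.20 and the chemokine Cxcl10 at -0.70 ± 0.15.

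Probe sets disagreed for Myh1, a skeletal muscle myosin heavy chain. The ranked probe set was at -1.18 ± 0.28 (adjusted p = 0.275), while its other 4 lay between 0.12 and 0.62. The rest of this rank were the respiratory complex I subunits Ndufa7 (-0.49 ± 0.11) and Ndufa5 (-0.83 ± 0.20), the electron carrier Cyb5a (-0.54 ± 0.12), Armcx4 (-0.52 ± 0.12), the actin-binding Lasp1 (-0.61 ± 0.14) and the interferon-induced nuclear body protein Sp110 (-0.57 ± 0.14).

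Known PPARγ targets were then read as a list of 41 lipid genes, 34 of which had a probe set and 27 passed the filter. Gpd1 was the 1 member called. Of the 27, 20 had a positive and 7 a negative difference, where 5045 of all 10078 probe sets were positive. The median was 0.20 beside 0.00 over all probe sets. Groups did not overlap for 7 members, all higher (Gpd1, Dgat2, G0s2, Plin2, Nr1h3, Acsl1 and Fabp3), and for 0 members lower, where the background is 2.45% and 2.17%. For 4 members all null virus values were under the filter limit. Nr1h3, counted among the 7, is 1 of these, and the filter favours higher values for such members. The list was therefore also read over all 34 genes without a filter, where the median was 0.17. Taking the smallest-p probe set of each gene instead gave 0.31. The median over the 27 tested members, taken in each array, was -0.07 to 0.10 in null virus and 0.24 to 0.32 in PPARγ virus arrays. The list was written with earlier results of these data known, so its counts and medians are descriptions.

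Among lipid droplet genes, G0s2, the inhibitor of the lipase that opens stored triglyceride, read 253.8, 228.2 and 259.4 in null virus and 364.8, 488.5, 367.5 and 508.8 in PPARγ virus arrays. The difference was 0.78 ± 0.17 (adjusted p = 0.227) with no overlap. Plin4, another droplet coat protein, stayed just under the filter and was not tested: it read 23.0, 24.4 and 26.5 against 37.5, 38.5, 36.9 and 34.3. Genes of mature fat cells were under the filter, with Plin1 at 12.3 to 20.4 and Lipe at 5.6 to 11.2 across the 7 arrays.

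Fabp4, a fatty acid binding protein of fat cells, read 9.8, 14.9 and 26.3 in null virus and 58.0, 41.2, 25.5 and 68.0 in PPARγ virus arrays, 1.28 ± 0.39 (adjusted p = 0.657). The groups overlapped through PPARγ virus replicate 3, which lay below null virus replicate 4. Cd36, the fatty acid uptake receptor, was at 2.6 to 12.5 against 2.8 to 19.9 on its single-gene probe set (0.45 ± 0.43). A brighter probe set, whose annotation joins Cd36 with another gene and so was assigned to neither, read 167.7, 144.1 and 160.1 against 310.4, 362.1, 246.9 and 459.2. Its groups did not overlap, with a difference of 1.08 ± 0.19 (adjusted p = 0.0815), so the single-gene probe set does not settle the level of Cd36. Fabp3, the heart-type binding protein, was at 53.1 to 64.3 against 68.8 to 70.3, a small but non-overlapping difference of 0.20 ± 0.23.

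Several further targets, picked after their values were seen, had PPARγ virus replicate 3 as the lowest of the 4. Angptl4, a secreted inhibitor of lipoprotein lipase, read 83.6, 67.5 and 46.7 against 271.4, 116.7, 81.3 and 131.3 (1.03 ± 0.35, adjusted p = 0.794), with overlap through that replicate. Nr1h3, the oxysterol receptor LXRα, read 26.0, 21.8 and 24.4 against 37.3, 44.4, 31.7 and 44.0 (0.61 ± 0.18, adjusted p = 0.533). Lpl, the lipoprotein lipase, did not share this order: replicates 1 and 3 were high (364.9 and 297.1) and replicates 2 and 4 (147.2 and 146.5) were inside the null virus range of 126.7 to 156.8. Acsl1, which activates fatty acids, was at 0.16 ± 0.13 in vehicle and 0.94 ± 0.13 with compound.

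**Figure D2:**
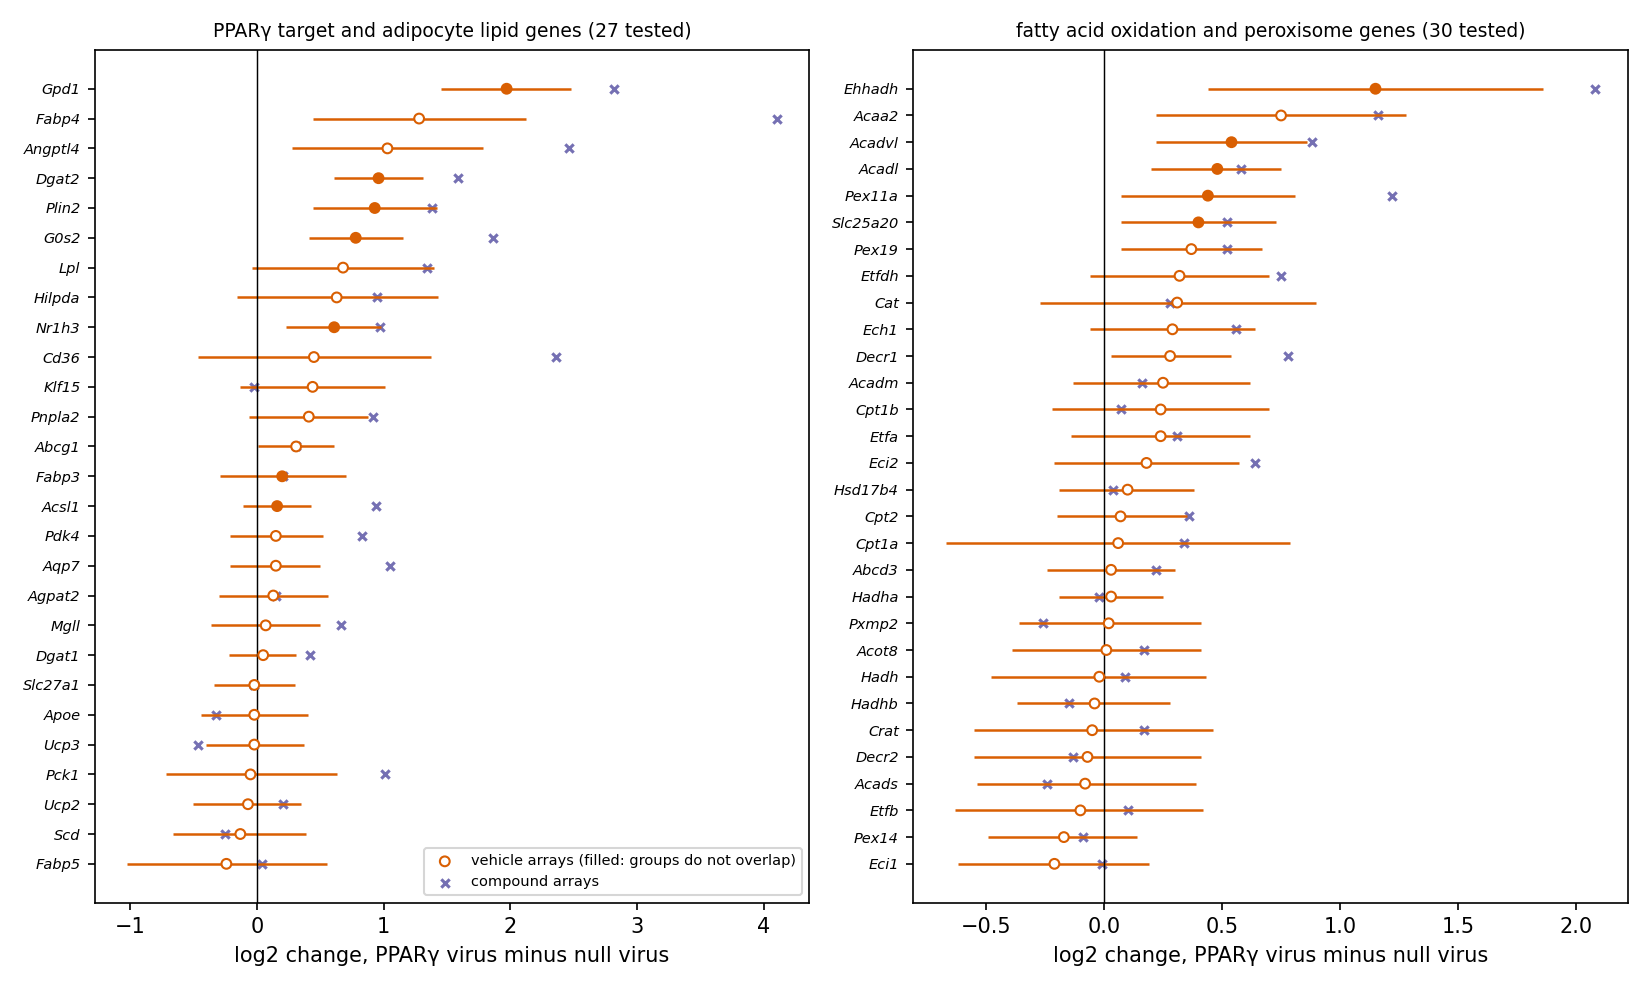
Log2 change (PPARγ virus minus null virus) of the tested PPARγ target genes (left) and fatty acid oxidation and peroxisome genes (right): circles with 95% intervals are vehicle arrays, filled where the groups do not overlap, and crosses are compound arrays. In vehicle the median is 0.20 on the left and 0.14 on the right, and Fabp4 goes from 1.28 in vehicle to 4.10 with compound.

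Fatty acid oxidation genes gave 0 calls among 30 tested (35 listed, 32 on the array). Of the 30, 22 had a positive difference (5045 of 10078 over all probe sets), and the median was 0.14. Groups did not overlap for 5, all higher (2.45% over all probe sets): Acadl, Acadvl, Ehhadh, Pex11a and Slc25a20. The median ran up to 0.25 without PPARγ virus replicate 1. Acadl, the long-chain acyl-CoA dehydrogenase, read 237.7, 273.7 and 269.1 against 303.4, 378.1, 377.0 and 403.3 (0.48 ± 0.13, adjusted p = 0.438). Acadvl, its very-long-chain relative, read 122.0, 122.3 and 161.9 against 225.6, 183.2, 162.0 and 225.4 (0.54 ± 0.15, adjusted p = 0.471). The margin between its groups was 161.9 to 162.0. Ehhadh, the peroxisomal bifunctional enzyme, was lower on the scale, at 2.4 to 12.6 against 15.0 to 32.7 (1.15 ± 0.33, adjusted p = 0.530). All its vehicle values lay under the filter limit of 39.3. Ehhadh entered the test only through the PPARγ virus compound arrays, at 42.4 to 82.6. Acaa2, a mitochondrial thiolase, was at 0.75 ± 0.25 with overlap, and Cpt1a, the gate of mitochondrial fatty acid entry, at 0.06 ± 0.34.

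PPAR and retinoid X receptor pairs bind a direct repeat of the hexamer AGGTCA with 1 base between the copies, AGGTCANAGGTCA. This motif was searched on both strands in RefSeq promoters (build GRCr8, from 250 bases before to 50 after the start), allowing 2 mismatches over its 12 fixed bases. Of the called genes 1, Pparg, was in the promoter table, with 2 promoters and no match; Plek, Gpd1 and Sgk2 had no entry. The lists were searched after their values had been seen. A match was found for 6 of 25 fatty acid oxidation genes with a promoter (24%) and 1 of 19 target genes (5.26%), where the share was 2.85% of 6353 tested genes and 4.06% of all 27457 genes in the table. These matches are descriptions of letters, not of binding. The windows below show a match in capitals for 2 oxidation genes whose groups did not overlap (Slc25a20, Acadvl), 1 oxidation gene at no difference (Acot8) and the target gene (Ucp3).
Slc25a20: cttaatgtAGGTGAAAGGTCGgtgtagccg
Acadvl: gggagaagAGGTCAGTGGTCAaggcttcag
Acot8: cacgccagGGGTCAGAGGTCActgggtaac
Ucp3: tcagaattAGGTTTCAGGTCAgctggtgca

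The Slc25a20 window lies at chr8:118243580-118243609 on the plus strand, with the match at bases 16 to 28 from the start of transcription. Acadvl is at chr10:55236701-55236730 and Acot8 at chr3:173962189-173962218, both on the minus strand, with matches at -17 to -5 and -22 to -10 and 1 mismatch each. Ucp3 is at chr1:164227845-164227874 on the plus strand, at -57 to -45. Genes with a match had unlike values: Slc25a20, the carnitine carrier of mitochondria, was at 0.40 ± 0.16 and Acadvl at 0.54 ± 0.15. Acot8, a peroxisomal thioesterase with 1 mismatch like Acadvl, was at 0.01 ± 0.19. Ucp3, a mitochondrial uncoupling protein, was at -0.02 ± 0.18. The other 3 oxidation genes with a match, Etfa, Cat and Crat, were at 0.24, 0.31 and -0.05, all with overlap.

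In triglyceride synthesis Gpd1 was called, and Dgat2 (higher) and Pisd (lower) were the other members whose groups did not overlap. Over all probe sets the shares were 2.45% higher and 2.17% lower. Pisd, which makes phosphatidylethanolamine, was at -0.37 ± 0.14. The remaining 9 of 12 overlapped, and the list median was 0.06 (0.14 without null virus replicate 1). Fatty acid synthesis had 0 calls among 14, with a median of -0.13: Fasn, the fatty acid synthase, was at -0.26 ± 0.11 (adjusted p = 1.000) and the elongase Elovl5 at 0.24 ± 0.10 (1.000). A dimmer Fasn probe set had the opposite sign, at 0.29 ± 0.22. Cholesterol synthesis had 0 calls among 17 and a median of 0.10 (0.20 without PPARγ virus replicate 4). It had 13 positive differences (5045 of 10078 over all probe sets).

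Beta cell genes showed no call among 15 tested. Of these, 12 had a negative difference, where 5033 of all 10078 probe sets did, and the median was -0.10. That median was -0.16 without null virus replicate 1, -0.15 without PPARγ virus replicate 3, -0.04 without null virus replicate 4 and -0.03 without PPARγ virus replicate 2. Ins2 read 3619.7, 3834.1 and 4421.2 in null virus and 4044.2, 3492.2, 4002.7 and 3554.7 in PPARγ virus arrays (-0.07 ± 0.09). Pdx1, the transcription factor of the beta cell, was the 1 member whose groups did not overlap (2.17% over all probe sets, downward). It read 312.5, 399.6 and 435.2 against 254.0, 277.9, 277.1 and 280.9 (-0.47 ± 0.16, adjusted p = 0.774). Gjd2, the beta cell gap junction protein, was at -0.55 ± 0.23 and Isl1, an islet transcription factor, at -0.41 ± 0.22, both with overlap. Secretory granule genes had 0 calls and 0 non-overlapping members among 18 (median -0.05, and 0.02 without PPARγ virus replicate 2). In whole islets, fewer cells of a type and less RNA per cell cannot be told apart.

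Among the hormone genes of the other islet cells, the spread within the PPARγ virus group was wide. Gcg (glucagon) read 2621.2, 2834.3 and 3423.3 in null virus and 3788.0, 420.8, 4191.7 and 1231.3 in PPARγ virus arrays, and its difference was -0.79 ± 0.90. Replicates 1 and 3 lay above all null virus arrays and replicates 2 and 4 below them. Sst (somatostatin) was highest in PPARγ virus replicate 3, at 1253.7, where the other 3 were at 222.8 to 293.8. The 7 genes of this list had 0 calls.

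**Figure D3:**
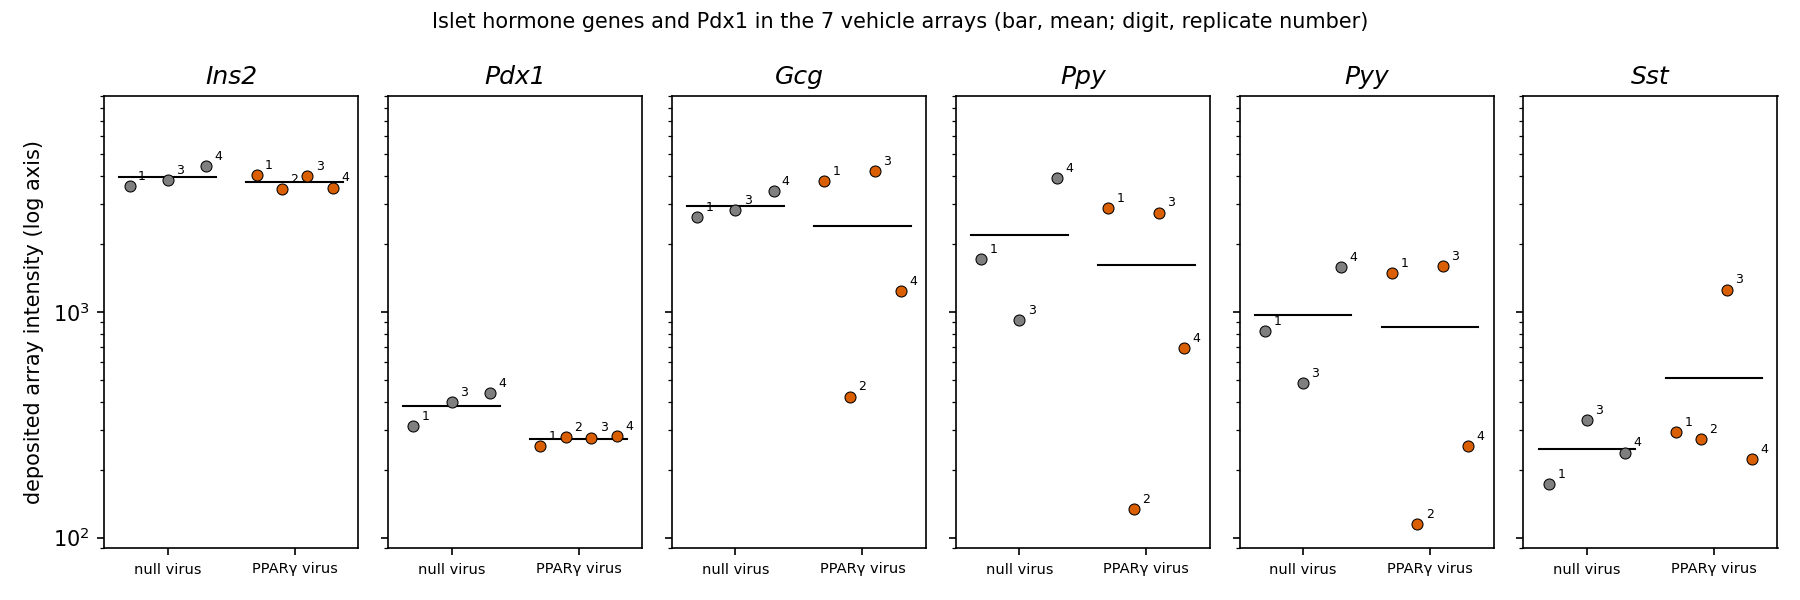
Deposited array intensity (shared log axis) of 5 islet hormone genes and Pdx1 in the 7 vehicle arrays; points are arrays, digits replicate numbers and bars group means. Gcg, Ppy and Pyy are low in PPARγ virus replicates 2 and 4, and only Pdx1 has groups that do not overlap.

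Interferon and antigen presentation genes had mostly negative differences, and 0 of 26 tested were called. There were 21 negative and 5 positive differences, with a median of -0.26, where 5033 of all 10078 probe sets were negative. Groups did not overlap for 5, all lower (2.17% over all probe sets): Psmb9, Tap1, Oasl, Mx2 and Oas1a. Psmb9, a subunit of the immunoproteasome, read 208.3, 210.7 and 257.4 against 138.3, 164.5, 141.7 and 161.0 (-0.56 ± 0.14, adjusted p = 0.385). Tap1, the peptide transporter of antigen presentation, read 87.2, 76.1 and 171.4 against 75.5, 54.5, 57.5 and 53.5 (-0.76 ± 0.26, adjusted p = 0.794). Null virus replicate 4 was high for Tap1, and the margin between the groups was 75.5 to 76.1. The list's median in each array was -0.07 to 0.00 in null virus and -0.37 to -0.13 in PPARγ virus arrays, and without PPARγ virus replicate 3 the list median was -0.13.

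Inflammatory genes had 0 calls among 26 (median -0.16, and -0.04 without PPARγ virus replicate 3). The groups did not overlap for Litaf, with higher values (2.45% over all probe sets). They also did not overlap for Cxcl10, Birc3 and Ccl20, with lower values (2.17%). Cxcl10 read 363.9, 277.5 and 342.1 against 245.1, 168.4, 168.7 and 224.4 (-0.70 ± 0.15, adjusted p = 0.227). Birc3, an inhibitor of apoptosis, was at -0.25 ± 0.12, and Nfkbia, the inhibitor of NF-kappa B, at -0.46 ± 0.17 with overlap.

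Stress, energy and growth lists likewise had no called member. Endoplasmic reticulum stress genes had a median of 0.06 over 24. Herpud1 at 0.42 ± 0.17 and Xbp1 at 0.22 ± 0.12 were the members without overlap (2.45% over all probe sets, upward). Glutathione genes had a median of -0.02 over 25: Mgst1, a membrane glutathione transferase, read 320.2, 201.4 and 323.4 against 506.0, 419.8, 400.3 and 542.7 (0.74 ± 0.21, adjusted p = 0.499). Respiratory chain genes had a median of -0.03 over 35 and did not share a direction, since Atp5po, an ATP synthase subunit, was at -0.51 ± 0.14 and Cox4i1, a cytochrome oxidase subunit, at 0.22 ± 0.09. Cell cycle genes had 21 negative differences of 27, where 5033 of all 10078 probe sets were negative. Their median was -0.17, with overlap for every member. Mki67, the proliferation marker, was at -0.53 ± 0.34. The medians were 0.08 for glycolysis (17 genes), -0.07 for immediate early and heat shock genes (20) and 0.00 for clock genes (12). The immediate early and heat shock median had no stable sign: it was 0.09 without null virus replicate 1, 0.04 without null virus replicate 3 and 0.02 without PPARγ virus replicate 3.

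Markers of other cell types in the islet preparation overlapped between the groups as sums. Acinar markers summed to 375 to 949 in null virus and 377 to 872 in PPARγ virus arrays, and 12 of the 19 on the array were under the filter. Duct markers had a median of 0.10 over 11 (0.22 without null virus replicate 4); Krt18, an epithelial keratin, was at 0.33 ± 0.13 without overlap, and Krt19 at 0.80 ± 0.27 with overlap. Endothelial and stromal markers had a median of 0.00 over 21, and Plvap, an endothelial protein, was at 1.10 ± 0.42 with overlap.

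**Figure D4:**
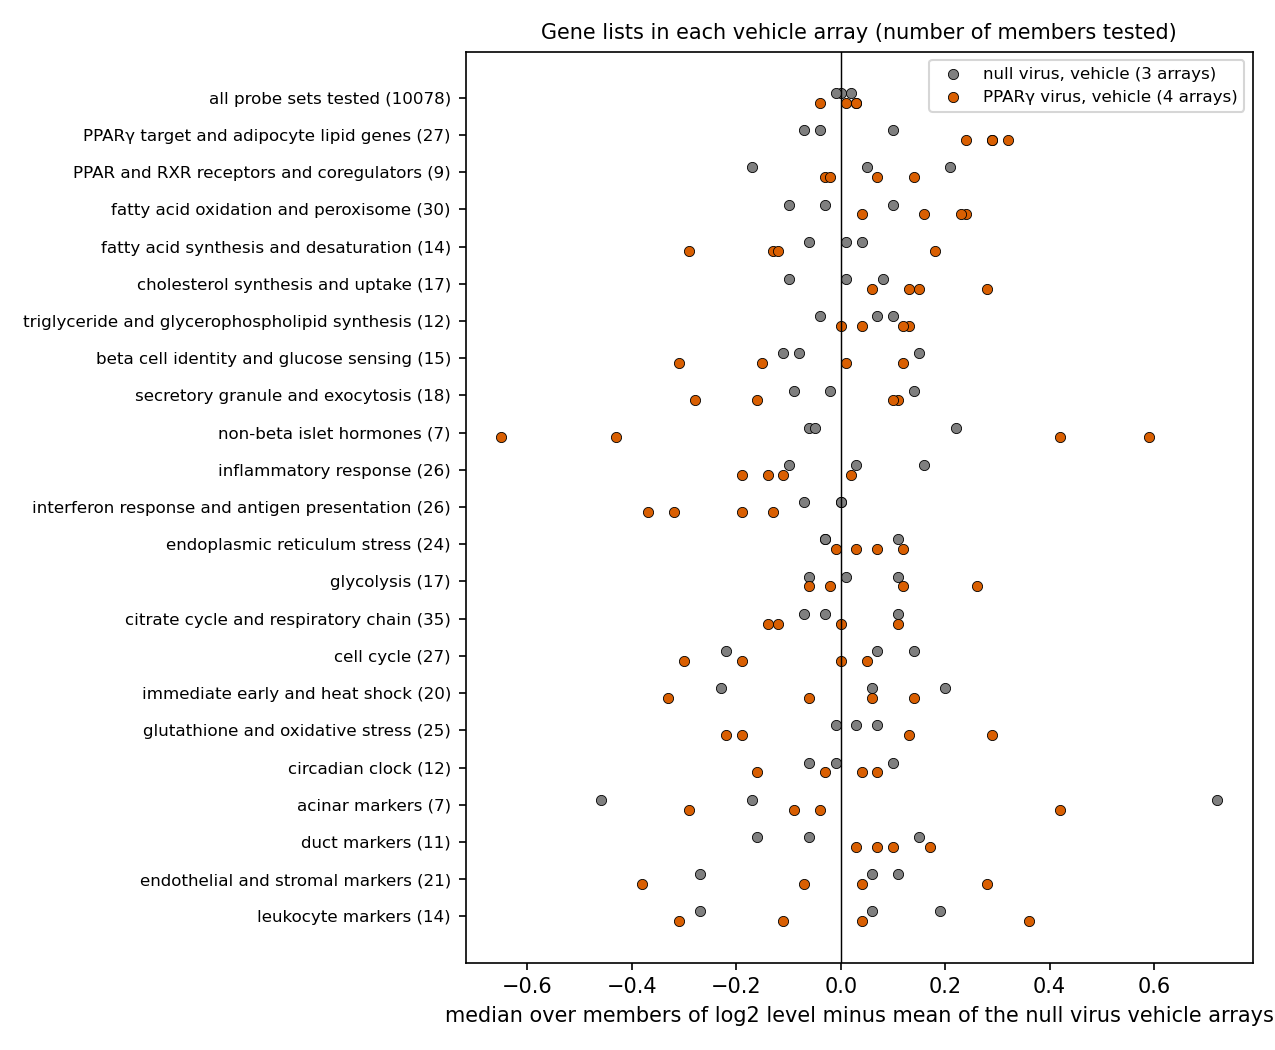
Median over the members of each list of the log2 level minus the mean of the 3 null virus vehicle arrays, for each vehicle array (null virus grey, PPARγ virus orange; number of tested members in brackets). The groups do not overlap for the PPARγ target list, at -0.07 to 0.10 against 0.24 to 0.32, and the interferon list, at -0.07 to 0.00 against -0.37 to -0.13. The lists were written with earlier results of these data known.

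The same virus comparison in the 7 compound arrays, which shares no array with the vehicle comparison but the same fitted spread, gave 64 probe sets called higher (0.635%) and 7 lower (0.0695%). All 4 genes called in vehicle were among the 64, with changes of 7.14 for Pparg, 3.85 for Plek, 2.82 for Gpd1 and 1.59 for Sgk2. In vehicle the 64 all had positive differences (5045 of 10078 over all probe sets), and 36 did not overlap (2.45% over all, upward). Their median was 0.61 where the compound arrays gave 1.19. The 7 called lower with compound were all lower in vehicle without overlap (2.17% over all, downward), with a median of -0.56 against -0.86. Both sets were chosen for passing with compound, which by itself favours smaller values in vehicle, so nothing is read from the difference of these medians. Across the 10078 probe sets the changes in vehicle and with compound had a Pearson correlation of 0.61. Same-numbered arrays of 1 virus deviated together (r from 0.45 to 0.70 in all 7 pairs). The correlation, the shared signs and the non-overlap counts are therefore descriptions, not independent support. The target list had a median of 0.20 in vehicle and 0.92 with compound, where 11 members were called.

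A test of the difference between the comparisons (compound minus vehicle) called 0 probe sets (0%), with 143 at an unadjusted p below 0.05. For the 3 called genes other than Pparg the unadjusted p of the difference was 0.0150 (Plek), 0.0245 (Gpd1) and 0.0186 (Sgk2), each with an adjusted p of 1.000. With the replicate number as a block within each virus, which the deviations of the 7 pairs bear out, 5 probe sets were called (0.0496%), all larger with compound. They included Fabp4 (2.81 ± 0.24, adjusted p = 0.00104), G0s2 (1.08 ± 0.11, 0.00464), the growth factor binding protein Igfbp1 (1.48 ± 0.21, 0.0368) and the glutathione transferase Gsta4 (1.96 ± 0.28, 0.0374); the fifth has no gene name. Fabp4 intensity with compound was 20.3 to 43.0 in null virus and 259.8 to 780.7 in PPARγ virus arrays, against 25.5 to 68.0 in PPARγ virus with vehicle.

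**Figure D5:**
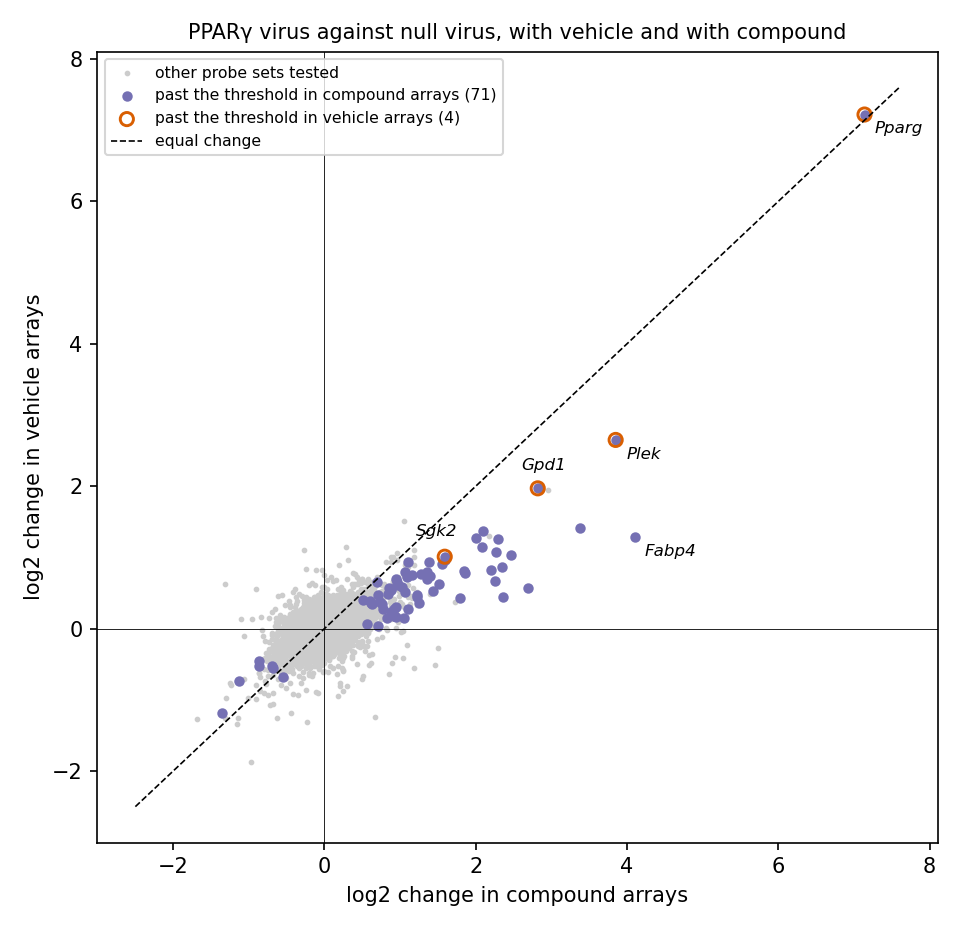
Log2 change (PPARγ virus minus null virus) in vehicle arrays against that in compound arrays for the 10078 probe sets tested; filled points passed the threshold in compound arrays, rings in vehicle arrays, and the dashed line marks equal change. Pparg lies near the line at 7.22 and 7.14, and all 64 probe sets called higher with compound, which were chosen on that axis, have positive vehicle values.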

How the data were processed

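RNA of rat islets was hybridised to an Affymetrix rat expression array of 15923 probe sets. The deposited table holds 1 intensity per probe set and array on a linear scale, without detection calls; the software that made it is not given in the sources used here. In the deposited intensity values the mean after trimming 2% at each end was 149.9 to 150.0 in every column, so the authors had scaled the arrays, and no further normalization was applied. Arrays carry no read depth; precision is limited by how many arrays there are.

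Null virus replicate 2 in vehicle and with compound held identical values in 15923 probe sets and both were left out. Values were taken as log2(intensity + 4.6), the 10th percentile; folds on this scale understate changes of dim genes. After leaving out 57 control probe sets, 10078 with intensity above 39.3 in at least 4 of 14 arrays were tested, of which 8488 named 1 gene, 235 several and 1355 none. Names came from the platform's annotation; 12748 of 12783 single-gene probe sets were matched to the RefSeq gene table by identifier. For a listed gene the brightest probe set, by mean over 14 arrays, was used.

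limma 3.58.1 (R 4.3.3) fitted 4 group means over 14 arrays, with empirical Bayes moderation and a variance trend, and the adjustment was by Benjamini-Hochberg at 0.05. The fitting code was tested on simulated data. Same-numbered vehicle arrays of the 2 viruses did not deviate together in every pair (r = 0.43, -0.12 and 0.12), so numbers were not treated as pairs across viruses.

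Named genes were Pparg, all called single-gene probe sets, the 12 single-gene probe sets next in rank in each direction without overlap between groups, and up to 4 members with the smallest p plus the first 2 of each of 24 lists; other genes were named after their values were seen. The members and lists were chosen with earlier results of these data known. Alternatives covered the samples, blocks, offset, filter, normalization, variance model and left-out arrays. Figures were drawn with matplotlib 3.10.9.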

Additional observations from a re-analysis of the deposited data

Results flagged for a closer look

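Among the 4 PPARγ virus arrays with vehicle, 137 values (named genes and array measures) were searched for a single array far from the other 3, by Dixon's ratio against its 95% critical value; chance gives about 1 in 20, and 7 were found. PPARγ virus replicate 3 stood high for Sst, the somatostatin gene, at an intensity of 1254 where the others were at 223 to 294. It also stood high for Sytl4, a granule docking protein, at 119 (others 55.8 to 61.3), for Calml4 at 170.3 (109 to 115) and for Cry2 at 61.5 (39.8 to 42.7). PPARγ virus replicate 1 stood low for Stard3nl at 334 (387 to 394) and for Pdx1 at 254 (277 to 281). PPARγ virus replicate 4 stood high for Hsp90b1, a chaperone of the endoplasmic reticulum, at 2018 (1686 to 1738).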

How the results depend on the processing

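Under 31 alternatives Pparg stayed called, Plek in 29, Gpd1 in 30 and Sgk2 in 16 of 30, and the log2 changes of the called and next-ranked genes kept their direction. The 4 probe sets called higher became 1 with only the 7 vehicle arrays and 3 to 6 when 1 array was left out; the count lower, 0, became 0 to 1. The labels do not say whether same-numbered arrays of the 2 viruses belong together. In vehicle their deviations correlated at 0.43, -0.12 and 0.12 for replicates 1, 3 and 4. With the replicate block over all groups 22 were called higher and 12 lower. With the replicate block in the 7 vehicle arrays 2 were called higher and 0 lower. A random block of virus and number called 4 (Pparg, Plek, Gpd1 and Dgat2). With compound the counts of 64 and 7 became 40 and 3 in the 7 compound arrays alone. The difference between the comparisons, 0 calls, became 2 (Fabp4 and G0s2) with the random block and 5 with the replicate block within each virus.

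With no array left out, list medians moved by more than the spread between arrays in these cases: the target list to 0.31 with the smallest-p probe set, the receptor list to 0.00 without a filter, chosen after seeing the data. Leaving out 1 array also moved some medians by more than that spread. The ranges of these lists were -0.01 to 0.17 for the receptors, 0.10 to 0.25 for oxidation, 0.06 to 0.20 for cholesterol synthesis, 0.00 to 0.14 for triglyceride synthesis, -0.23 to -0.04 for inflammatory, -0.33 to -0.13 for interferon and 0.02 to 0.22 for duct genes. Moves within that spread gave -0.16 to -0.03 for beta cell, -0.11 to 0.02 for secretory granule, -0.20 to 0.09 for immediate early and heat shock, -0.07 to 0.07 for glutathione, -0.08 to 0.01 for respiratory chain, 0.00 to 0.14 for glycolysis, -0.25 to -0.10 for cell cycle, -0.16 to -0.06 for fatty acid synthesis and -0.11 to 0.12 for endothelial and stromal genes. The target list stayed between 0.19 and 0.26. Promoter matches among oxidation genes, 6, were 2 with at most 1 mismatch and 11 with at most 3. The causes of these shifts were not tested.

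Without detection calls, low intensities cannot be told from background, which limits Plek, Sgk2, Fga, Ehhadh, Nr1h3, Abca2 and endogenous Pparg.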

Other observations

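Glucagon and pancreatic polypeptide genes followed the replicate number in both incubations of the PPARγ virus. Gcg intensity in PPARγ virus replicates 1 to 4 was 3788.0, 420.8, 4191.7 and 1231.3 with vehicle and 3606.2, 180.8, 3910.6 and 1221.3 with compound. Ppy, the pancreatic polypeptide gene, was at 2884.4, 133.6, 2753.6 and 691.8 with vehicle and 2689.2, 67.6, 2172.4 and 720.4 with compound. Replicates 2 and 4 were low for both genes in both incubations. The order was not limited to these genes: Chga, the granule protein chromogranin A, was at 982.6, 429.6, 940.3 and 588.5 with vehicle, and Ins2, over a narrower range, at 4044.2, 3492.2, 4002.7 and 3554.7. In null virus arrays Gcg lay between 2621.2 and 3423.3 with vehicle. These genes and this order were noticed in the data, and no test was run on them.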
